A study of Mus musculus with 16 samples.

Results

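Pulmonary ECs of WT mice given 10 mg/kg LPS were compared with pulmonary ECs of Fgfr1 loxP/loxP mice given 2 mg/kg LPS, in 9 of the 16 libraries of the series. The 6 libraries of the higher dose and the 3 of the lower dose were assigned to groups by their labels. LPS was instilled intratracheally in both groups, and the cells were taken 24 h later. The WT mice were male C57/BL6J of 8 weeks. The Fgfr1 loxP/loxP mice carry floxed Fgfr1 alleles without the Cre recombinase, received tamoxifen, and served as controls for mice in which a VE-cadherin-CreERT2 transgene removes Fgfr1 from ECs (Fgfr1 iΔEC/iΔEC). They are described as littermates of those mice, in which Fgfr1 was removed in adults. Their sex and their age in weeks are not given in the sources used here. Digested lung was freed of cells with CD45, a leukocyte surface protein encoded by Ptprc, and cells with CD31, encoded by Pecam1, were selected on beads. The 2 groups were run as separate experiments with a table each, so that dose, genotype background, tamoxifen and experiment form a single split of the libraries and cannot be told apart. No mouse of the second experiment received saline. Each difference given here is therefore a difference between these 2 sets of libraries and is not assigned to the dose. The 4 saline libraries of the first experiment and the 3 iΔEC/iΔEC libraries of the second are given beside the results as levels only.

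LPS, or lipopolysaccharide, coats Gram-negative bacteria. It is bound by CD14 and by the TLR4 receptor complex, and from there the MyD88 adaptor leads to NF-kB and to inflammatory cytokines, while the TRIF adaptor leads to IRF transcription factors, type I interferon and interferon-stimulated genes. Interferon-gamma, made by T and NK cells, induces guanylate-binding proteins and, through the transactivator CIITA, MHC class II. Lung ECs respond with adhesion molecules and chemokines, and monocytes and neutrophils gather in the lung vessels.

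Reads on genes numbered 17840221 to 19043015 per library (median 18798972) in the 10 mg/kg group and 15969575 to 17002788 (median 16741770) in the 2 mg/kg group. Values are FPKM, the fragments on a gene scaled to its length and to the fragments of its library. The 2 tables had been normalized separately, and the 9 columns were brought to one scale by factors of 0.973 to 1.007 for the 10 mg/kg libraries and 0.993 to 1.011 for the 2 mg/kg libraries. Over all genes tested, the correlation of log2(FPKM + 1) was 0.949 to 0.984 within the 10 mg/kg group and 0.958 to 0.973 within the 2 mg/kg group. Between the groups it was 0.902 to 0.954. The Y-linked Ddx3y was read at 12.4 to 25.8 FPKM (median 19.8) in the 10 mg/kg group and at 21.7, 21.2 and 19.8 FPKM in the 2 mg/kg group. Xist was at most 0.013 FPKM in any of the 9 libraries, so that all carry the read pattern of males.

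The endothelial markers were abundant in all 9 libraries, and their levels did not part the groups. The summed FPKM of the 12 endothelial markers was 1483 to 3459 (median 2953) in the 10 mg/kg group and 2963, 2400 and 2461 in the 2 mg/kg group. Cldn5, the tight junction claudin of ECs, was the most abundant of them. Cdh5, which encodes VE-cadherin, stood at 246 to 534 FPKM (median 382) against 429, 308 and 411 FPKM, and Pecam1 at 234 to 442 FPKM (median 359) against 476, 349 and 359 FPKM. The groups overlapped for both genes, and 0 of the 12 markers passed the test. The lowest endothelial sum, 1483, was that of WT library 1. In that library the 8 monocyte and macrophage markers summed to 4085 and the 8 neutrophil markers to 2960. The monocyte and macrophage sum was 1941 to 4085 (median 3197) in the 10 mg/kg group and 1149, 1845 and 2748 in the 2 mg/kg group. The selected cells thus held abundant leukocyte RNA beside endothelial RNA.

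Of 14698 genes tested with limma on log2(FPKM + 1), 317 (2.16% of those tested) were called higher in the 10 mg/kg group and 351 (2.39%) were called lower, at an adjusted p of at most 0.05 and a log2 difference of at least 1. The median difference over all genes was 0.01. The count of every list below is to be read against these 2 shares. Counts of 0 or 1 in a short list are not read as results about that list. The 2 groups did not overlap, in either direction, for 2441 genes (16.6%), and 307 of the genes called higher and 324 of those called lower were among them. Protein-coding genes made up 288 of the higher and 211 of the lower calls. A further 80 of the lower calls were immunoglobulin gene segments. Of the 149 tested, some passed the filter on mean FPKM through the 2 mg/kg libraries alone. The count depended on single libraries, and without loxP/loxP library 1 the genes called higher numbered 164. Of 109 named genes that were called, 69, 72 and 79 were called again without loxP/loxP library 1, 2 and 3, respectively. With each library scaled on the endothelial list in place of all genes, 110 genes were called higher and 207 lower (34.7% higher of those called, against 47.5%), and the median of all genes moved to 0.11.

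**Figure D1:**
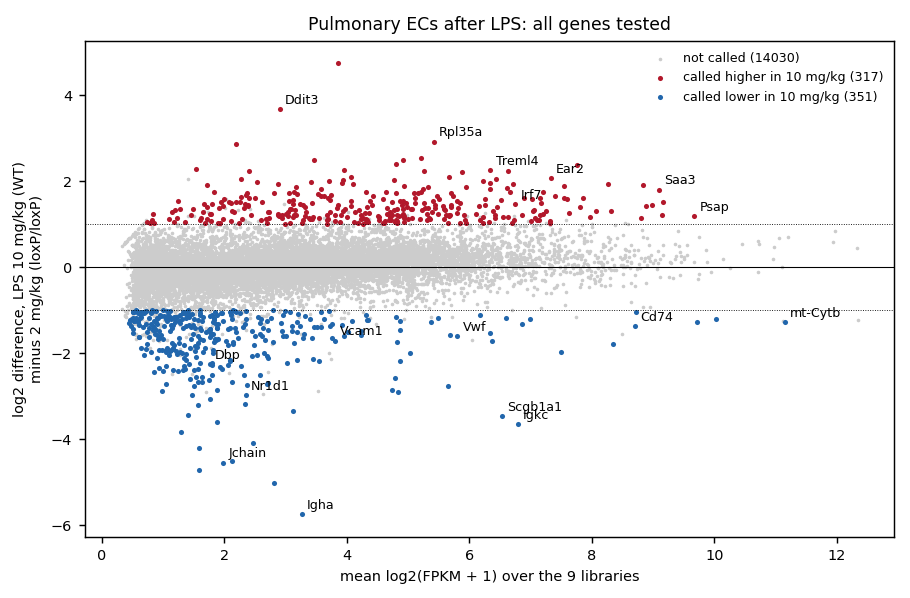
Each point is a gene, with its mean log2(FPKM + 1) over the 9 libraries on the x axis and the log2 difference between the 10 mg/kg (WT) and 2 mg/kg (loxP/loxP) groups on the y axis. Red points are the 317 genes called higher and blue points the 351 called lower, and dotted lines mark a log2 difference of 1 either way.

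The levels in saline libraries were set beside the calls. Of the genes called higher, 274 (86.4%) had a 2 mg/kg mean between the saline mean and the 10 mg/kg mean, against 62.5% of all 7580 genes tested with a positive difference. Every saline library was under every 2 mg/kg loxP/loxP library for 212 (66.9%) of those called higher, against 29.6%. Of the genes called lower, 44 (12.5%) had such an intermediate mean, against 55.4% of all 7118 genes tested with a negative difference. Every saline library was under every 2 mg/kg library for 132 (37.6%) of those called lower, against 15.4%. These are orders of levels with no test, and the saline mice belong to the experiment of the 10 mg/kg group. Saline library 1 stood apart from the others in several levels. Its neutrophil marker sum was 1432, against 84.3, 321 and 95.3 in the other saline libraries.

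Treml4, Cd300e, Ear2 and Adgre4 were among the leading genes higher in the 10 mg/kg group, after Ddit3 and Rpl35a. Predicted genes were left out. These genes were picked by the size of their differences, and enrichment for a cell type was not tested. Treml4, a receptor of the TREM family on myeloid cells, was read at 78.4 to 192 FPKM (median 146) in the 10 mg/kg group and at 26.2, 36.2 and 22.1 FPKM in the 2 mg/kg group. All 6 WT libraries lay above all 3 loxP/loxP libraries, with a log2 difference of 2.26 ± 0.26 (SE; limma adjusted p = 0.00122). Cd300e, an activating receptor of monocytes, was at 36.4 to 73.0 FPKM (median 50.65) against 7.19, 7.02 and 12 FPKM, a log2 difference of 2.5 ± 0.23 (limma adjusted p = 0.000474). Ear2, an eosinophil-associated ribonuclease, stood at 147 to 354 FPKM (median 269) against 55.3, 66.0 and 61.4 FPKM. Adgre4, an adhesion receptor of the F4/80 family, was at 60.5 to 128 FPKM (median 76.4) against 14.6, 22.2 and 18.6 FPKM. None of these genes overlapped between the groups. In saline libraries Treml4 and Adgre4 were at most 3.42 and 3.58 FPKM, and in iΔEC/iΔEC libraries Treml4 was at 18.2 to 58.4 FPKM.

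Spic, a transcription factor of red pulp macrophages, was less abundant, at 4.93 to 10.1 FPKM (median 9.22) against 0.727, 1.26 and 0.697 FPKM (log2 difference 2.23). The other leading genes with at least 5 FPKM were AA414768 (2.49), Aif1 (2.40), Plac8 (2.37), Mcub (2.27), a subunit of the mitochondrial calcium uniporter, Ms4a6c (2.23), Clec4a3 (2.23), Ifitm6 (2.22) and Fcgr1 (2.10), the high-affinity Fc receptor of monocytes. Of 13 genes typical of nonclassical monocytes that were put together after these values had been seen, 11 were called higher. The exceptions were Ace (0.25), which capillary ECs also express, and Nr4a1 (0.77), and Ear2 has near-identical paralogs between which reads could be divided. Csf1r, the receptor for M-CSF that defines monocytes and macrophages, was at 132 to 303 FPKM (median 210) against 54.2, 81.0 and 67.4 FPKM (log2 difference 1.6). Adgre1, which encodes F4/80, differed by 1.45 and Cd68 by 1.17. Among the 8 monocyte and macrophage markers chosen earlier these 3 were called higher and 0 lower, with a list median of 0.87. None of the 3 was called with each library scaled on the endothelial list, and Cd68 was not called without loxP/loxP library 1 (0.99) or 2 (1.11).

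Leukocyte RNA moved with these genes. The summed FPKM of the 6 general leukocyte markers was 659 to 1556 (median 1137) in the 10 mg/kg group and 453, 610 and 537 in the 2 mg/kg group, with no overlap, and 77.5 to 231 in the saline libraries. Coro1a was the most abundant of them, and it and Laptm5 were called higher. Ptprc itself, on whose protein the cells were depleted, was at 22.7 to 52.7 FPKM (median 30.3) against 13.8, 17.0 and 23 FPKM, and its log2 difference of 0.88 did not pass (limma adjusted p = 0.060). Coro1a (1.20) and Laptm5 (1.08) were not called without loxP/loxP library 1. None of the 6 markers was at 0 in any library. In bulk RNA, more cells of a type and more RNA per cell cannot be told apart, and the part of contaminating leukocytes in the other results was not tested.

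Markers of other blood and tissue cells were mixed. The summed level of the 8 neutrophil markers overlapped between the groups, at 1360 to 6862 (median 2749) against 1193, 2652 and 2624, and 0 of the 8 were called. The lymphocyte sum was lower in the 10 mg/kg group, at 12 to 48.4 (median 25.2) against 73.5, 67.9 and 63.9. Nkg7 of cytotoxic cells and Cd3d of T cells were among those called lower (log2 differences -1.81 and -1.26). Cd3d was not called without any 1 of the loxP/loxP libraries, while Nkg7 was. Erythroid markers were lower as well, with 4 of 5 called and Hbb-bs at 7.80 to 30.1 FPKM (median 17.4) against 48.0, 190 and 55.2 FPKM. Hbb-bs was at 2.45 to 9.39 FPKM in saline and 65.0 to 183 FPKM in iΔEC/iΔEC libraries. All libraries of the first experiment thus lay under all of the second, and the same held for Hbb-bt, Hba-a2, Cd3d and the platelet marker Gp9. All 4 platelet markers tested had a negative difference (median -1.07) and 1, Gp9, was called, and Gp1bb was listed at 0 in all libraries. The epithelial sum was 324 to 1115 (median 809) against 1033, 1841 and 3058, with 1 WT library inside the 2 mg/kg range, and 1187 to 3035 in saline. Sftpc, the surfactant protein gene that was the most abundant epithelial marker, was at 96.3 to 404 FPKM (median 318) against 466, 828 and 1035 FPKM and did not pass (-1.55). The median of the 10 epithelial markers was -0.47, or 0.36 with the iΔEC/iΔEC libraries as the 2 mg/kg group, and 1 was called, the club cell secretoglobin Scgb1a1, which ranged from 13.4 to 132 FPKM in the 10 mg/kg group and from 175 to 1299 FPKM in the 2 mg/kg group. Without loxP/loxP library 2 or 3 neither Scgb1a1 (-3.53 and -2.71) nor Gp9 was called, and Hbb-bs (-1.57) was not called without library 2. Of 6 fibroblast markers tested 5 had a positive difference, with Pdgfra called higher (1.45) and Dcn called lower (-1.42), and the 10 mg/kg sum of 19.3 to 47.1 FPKM overlapped the 2 mg/kg values of 24.3, 21.2 and 28.9 FPKM. Of 7 mural markers the smooth muscle genes Acta2 (-1.29) and Cnn1 (-1.41) were called lower, while the list median was -0.06, of a sign that changed with other scalings, and the pericyte receptor Pdgfrb differed by 0.51. The mural sum, of which Acta2 is the most abundant member, was 33.0 to 58.8 FPKM against 70.5, 95.6 and 134 FPKM. Acta2 was not called without loxP/loxP library 2 (-1.29) or 3 (-1.04). Mesothelial markers were under 0.6 FPKM in all 9 libraries and were not tested.

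**Figure D2:**
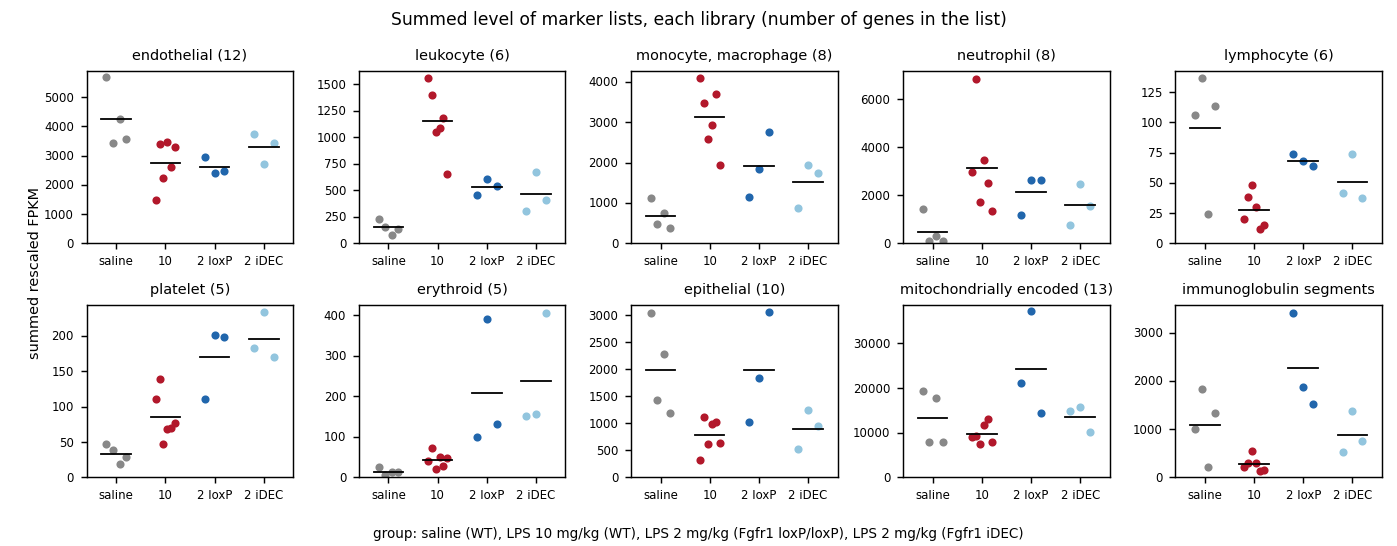
Summed rescaled FPKM of the marker lists in each library, with a black line at the group mean, for saline (WT, 4 libraries), 10 mg/kg LPS (WT, 6), 2 mg/kg LPS (loxP/loxP, 3) and 2 mg/kg LPS (iΔEC/iΔEC, 3). Leukocyte sums of the 10 mg/kg group (659 to 1556) lie above those of the loxP/loxP libraries (453 to 610), endothelial sums overlap, and immunoglobulin sums of the 10 mg/kg group (140 to 542) lie under those of the loxP/loxP libraries (1525 to 3414).

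Of 25 genes of NF-kB subunits and feedback, which carry the acute response to LPS, 0 were called in either direction, where 4.54% of all genes tested were called. The list median was 0.27, and 22 of the 25 had a positive difference. For 3 genes all WT libraries lay above all loxP/loxP libraries. The same order held for 1353 of the 14698 genes tested, a share near that of the list. Among the 3 was the inhibitor gene Nfkbia, at 459 to 684 FPKM (median 516) against 400, 405 and 351 FPKM. Tnf stood at 26.1 to 89.3 FPKM (median 47.5) against 29.3, 39.4 and 45.5 FPKM, where saline libraries had at most 0.749 FPKM. Il6 was at 0.800 to 2.55 FPKM (median 1.78) against 1.25, 1.79 and 0.877 FPKM. For Il1b the values were 273 to 1129 FPKM (median 633) against 292, 531 and 574 FPKM. The groups overlapped for all 3 cytokines. Lcn2, the siderophore-binding protein lipocalin 2, reached 742 to 1806 FPKM (median 1258) against 1739, 1673 and 636 FPKM, a log2 difference of -0.02.

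A few members of these families were called. Il10, the cytokine that restrains inflammation, was at 2.97 to 9.44 FPKM (median 3.62) against 0.977, 1.45 and 0.750 FPKM, with a log2 difference of 1.42 ± 0.29 (limma adjusted p = 0.0158). Il27 (1.08) and Csf3 (1.02), which encodes G-CSF, were the other cytokines called higher of 17 tested, and Il33, the alarmin of barrier cells, was called lower (-1.32). Saa3, an acute phase protein, was read at 510 to 1271 FPKM (median 896) against 274, 386 and 127 FPKM, and it was the only one called of 17 acute phase genes. Saline libraries had at most 0.353 FPKM of Saa3. Without loxP/loxP library 1 or 3 neither Il10 (1.40 and 1.31) nor Saa3 (1.90 and 1.35) was called, though the groups stayed apart. Among the CC chemokines Ccl6 (1.58) and Ccl12 (1.12) were higher, and Ccl22 (-1.75), Ccl17 (-1.31) and Ccl8 (-1.24) were lower, with 1 loxP/loxP library inside the WT range for Ccl17. Ccl6 was not called without loxP/loxP library 1 (1.17) or 2 (1.5), Ccl17 without library 2 (-1.01) or 3 (-1.21), Il27 without library 1 (1.05) or 3 (0.99), Il33 without library 2 (-1.48) or 3 (-0.80), and Csf3 without any 1 of the 3. Of 19 genes of LPS and Toll-like receptor signaling, Tlr7, a sensor of single-stranded RNA, and Ticam2, the bridging adaptor of TLR4, were called higher (1.45 and 1.23), while Tlr4 differed by -0.11 and Cd14 by 0.51. Ticam2 overlaps Tmed7 on the same strand, and reads could be shared between them.

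Of 21 host defence enzymes 7 were called higher in the 10 mg/kg group and 2 lower, and 14 had a positive difference. Over all genes tested, 2.16% were called higher and 2.39% lower. Those called higher included the subunits of the phagocyte NADPH oxidase Ncf4 (1.16), Cyba (1.13) and Cybb (1.03). Hmox1, the heme-degrading oxygenase, was at 192 to 308 FPKM (median 250) against 58.9, 79.8 and 96.6 FPKM (log2 difference 1.66). Psap, which encodes the lysosomal prosaposin, was among the 5 most abundant genes called, at 782 to 1368 FPKM (median 1113) against 431, 481 and 507 FPKM. Psap (1.12) was not called without loxP/loxP library 1. Ido1 and the endothelial nitric oxide synthase Nos3 were called lower, at -1.5 and -1.24, and Ido1 was not called without loxP/loxP library 1 (-1.11) or 2 (-1.36).

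Genes of the 2 interferon pathways lay on opposite sides. Of 35 type I interferon-stimulated genes 7 were called higher and 0 lower, 32 had a positive difference, and the list median was 0.64. Over all genes tested, 2.16% were called higher. Irf7, which amplifies type I interferon production, was at 127 to 253 FPKM (median 135) in the 10 mg/kg group and at 57.2, 74.1 and 36.7 FPKM in the 2 mg/kg group, with a log2 difference of 1.46 ± 0.27 (limma adjusted p = 0.00907). Oas1a, an oligoadenylate synthetase that senses double-stranded RNA, stood at 34.1 to 91.9 FPKM (median 47.3) against 20.8, 24.6 and 14.4 FPKM. The groups were apart for both genes. Dhx58 (1.38), Ifi204 (1.28), Oas3 (1.14), Zbp1 (1.05) and Trim30d (1.02) were the other calls. Oas1a was not called without loxP/loxP library 1 (1.41) or 3 (1.16), while Irf7 was called without each library.

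Of 18 interferon-gamma inducible GTPases, which coat the vacuoles of intracellular pathogens, 3 were called lower and 0 higher in the 10 mg/kg group. Over all genes tested, 2.39% were called lower. None of the 18 had a positive difference, and the list median was -0.88. Gbp4 was at 7.41 to 17.9 FPKM (median 9.04) against 48.8, 33.6 and 18.6 FPKM, a log2 difference of -1.5 ± 0.32 (limma adjusted p = 0.0181). The 2 mg/kg libraries were widely spread, with the highest level in library 1. Gbp2, which did not pass (limma adjusted p = 0.14), was at 31.4 to 50.5 FPKM (median 40.3) against 215, 94.0 and 34.1 FPKM. Gbp4, Gbp8 and Gbp9 overlap on one strand, so that the calls of Gbp4 and Gbp8 share genomic sequence with Gbp9, which differed by -0.40. Gbp2b had at most 2 reads in any WT library and was at 0.144, 25.6 and 12.5 FPKM in the 2 mg/kg libraries, from 7 to 1177 reads. Gbp2b thus passed the filter on mean FPKM only through the 2 mg/kg libraries, which favoured a lower call. Gbp4 was not called without loxP/loxP library 1 (-1.19) or 2 (-1.46), nor Gbp8 (-0.89 and -1.09), and Gbp2b lost its call without any 1 WT library and without loxP/loxP library 2 (-1.95) or 3 (-2.44). Ifng itself was at most 0.21 FPKM in the WT libraries and at 1.48, 0.33 and 0.25 FPKM in the loxP/loxP libraries, and was too low to be tested. Of 8 tested genes of cytotoxic lymphocytes, listed after the values had been seen, Gzmb (-1.52) and Klrd1 (-1.06) were called lower and 0 higher, with a median of -0.91, and their part in the GTPase levels was not tested.

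Promoters of both lists hold the core of the interferon-stimulated response element, AANNGAAAC, and the letters are shown because the lists share the motif and lie on opposite sides. The window ran from 250 bases before to 50 after the start, was taken from RefSeq (GRCm38.p6), and was read on both strands. The core was found in 17 of 25 windows of type I interferon-stimulated genes (68%), in 10 of 11 windows of the GTPases (90.9%) and in 1787 of all 27025 (6.6%). The examples upstream of the start are the 2 genes called higher that have one and the 2 GTPases with the largest differences that have one, at chr5:120907526-120907553, chr7:104507873-104507901, chr3:142620593-142620621 and chr3:142496758-142496786. Each is written along the strand of its gene, with the core, or its reverse complement, in capitals.
Oas1a: cttctcgggaAATGGAAACtgaaaatct
Trim30d: tagttctttaGTTTCTTTTtctcagttcc
Gbp2: aactcttttaGTTTCACTTtcactgtctt
Gbp5: aacttgtgtaGTTTCAATTtcagtttaga
Oas1a and Trim30d differed by 1.37 and 1.02 on the log2 scale, and Gbp2 and Gbp5 by -1.16 and -1.55, the last pair without passing the test.

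**Figure D3:**
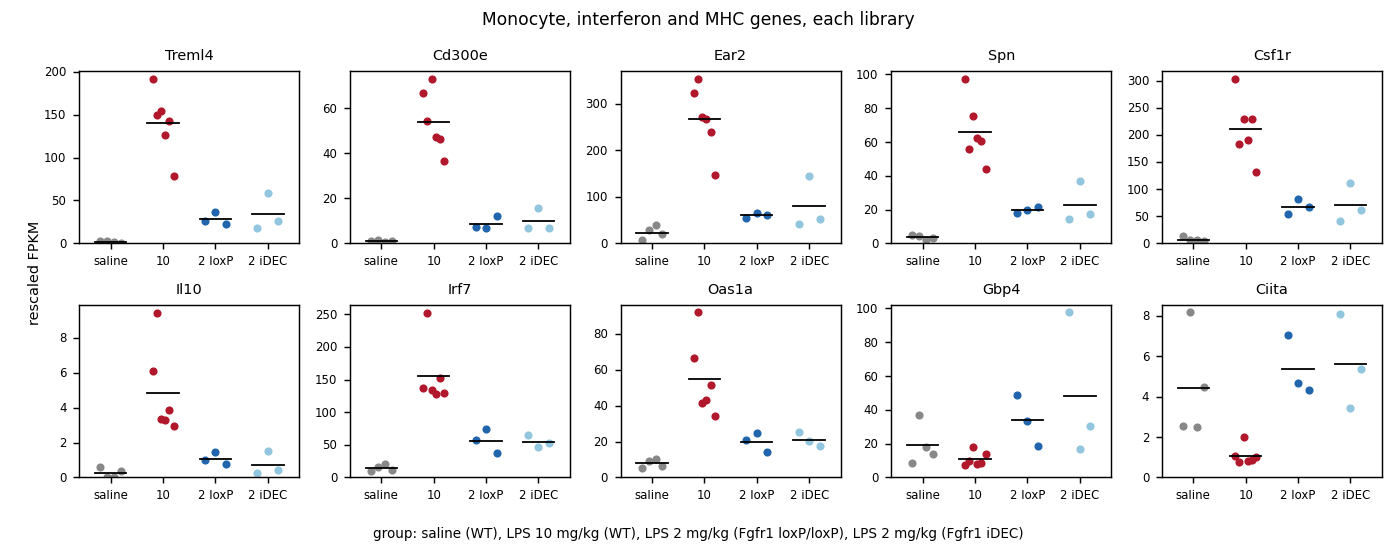
Rescaled FPKM of monocyte, interferon and MHC genes in each library, in the order saline, 10 mg/kg LPS, 2 mg/kg LPS in loxP/loxP and 2 mg/kg LPS in iΔEC/iΔEC mice, with a black line at the group mean. Irf7 is at 127 to 253 FPKM in the 10 mg/kg group and at 36.7 to 74.1 FPKM in the loxP/loxP libraries, and Ciita has the opposite order.

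MHC class II genes were lower in the 10 mg/kg group. Ciita, the transactivator on which their transcription depends, was at 0.751 to 1.99 FPKM (median 0.927) against 7.06, 4.66 and 4.35 FPKM, with a log2 difference of -1.61 ± 0.19 (limma adjusted p = 0.00161). All 6 WT libraries were under all 3 loxP/loxP libraries, and the saline libraries lay at 2.5 to 8.18 FPKM. Ciita overlaps Dexi on the opposite strand, and Dexi differed by -0.34. Cd74, the invariant chain that escorts class II molecules, was at 194 to 410 FPKM (median 314) against 1006, 697 and 692 FPKM. Without loxP/loxP library 1 the difference of Cd74 was -1.20 and just missed (limma adjusted p = 0.0506). H2-Aa stood at 51.4 to 83.8 FPKM (median 79.2) against 200.8, 166 and 140 FPKM. Of the 13 genes of the list 8 were called lower and 1 higher, with a median of -1.19. Over all genes tested, 2.39% were called lower and 2.16% higher. The gene called higher was Ctss, a lysosomal protease of antigen presentation that is abundant in myeloid cells, at 484 to 924 FPKM (median 733) against 156, 216 and 201.2 FPKM. Of 22 genes of MHC class I and the immunoproteasome 0 were called in either direction, and their median of 0.08 was negative with reads scaled on their totals.

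**Figure D4:**
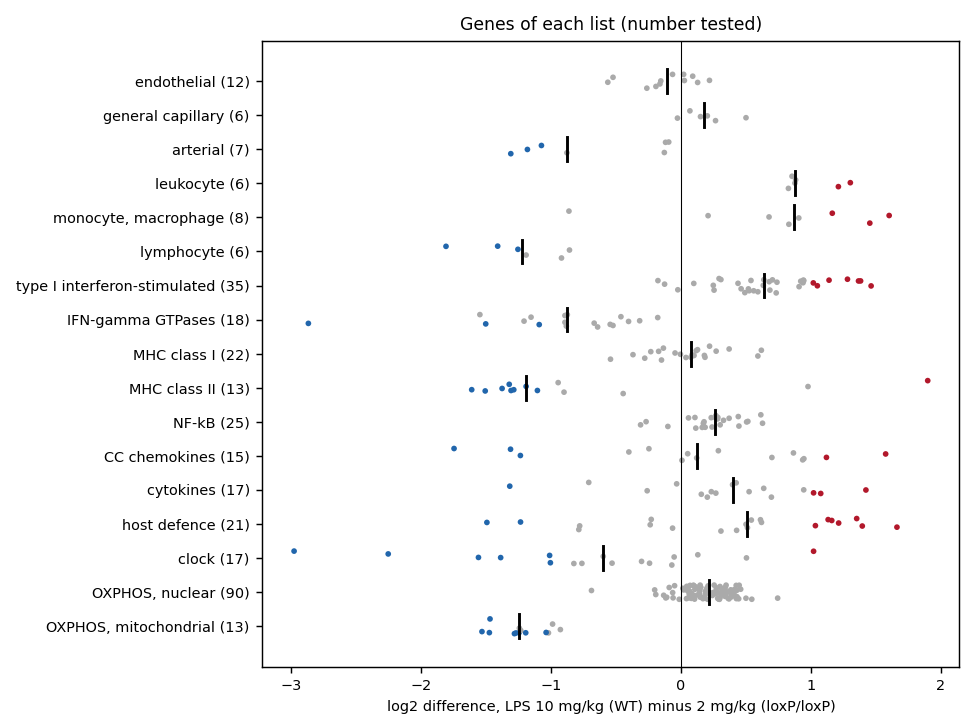
Each point is the log2 difference of 1 gene between the 10 mg/kg (WT) and 2 mg/kg (loxP/loxP) groups, by list, with a black line at the list median, red for genes called higher, blue for genes called lower and grey for the rest. Type I interferon-stimulated genes lie mostly to the right (median 0.64), and the GTPases (-0.88) and MHC class II genes (-1.19) to the left.

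Single endothelial genes of large vessels, adhesion and coagulation were called lower in the 10 mg/kg group. No capillary marker was called, and none of the 4 venous markers chosen earlier was. With 4.54% of all genes tested called, 0 calls in lists this short show no contrast with those genes. Of 10 adhesion molecules 2 were called lower and 0 higher, Vcam1 and the unevenly read Glycam1. Glycam1 passed the filter on mean FPKM only through the 2 mg/kg libraries. Of 20 genes of coagulation and fibrinolysis 2 were called lower, Vwf and Procr, and 2 higher, F13a1 (1.33) and F10 (1.04), with a median of -0.04 that was positive with endothelial scaling. F13a1 and F10 were not called without any 1 of the loxP/loxP libraries. Of the 4 venous markers 0 were called, with Nr2f2, a transcription factor of venous identity, at -0.95 and Ephb4 at -0.09. In a list of 10 genes of veins and large vessels made after the values had been seen, 6 were called lower, whereas Bst1 differed by 0.51 and Selp and Ackr1 overlapped between the groups. Vcam1, the adhesion molecule for monocytes and lymphocytes, was at 4.59 to 14.3 FPKM (median 8.41) against 31.6, 34.3 and 24.1 FPKM, a log2 difference of -1.71 ± 0.27 (limma adjusted p = 0.00505). The saline libraries had 3.84 to 7.14 FPKM and the iΔEC/iΔEC libraries 24.3 to 36.2 FPKM. Icam1, the ligand of leukocyte integrins, was at 221 to 358 FPKM (median 311) against 264, 205 and 128 FPKM, with overlapping groups (log2 difference 0.61, limma adjusted p = 0.153). Sele and Selp, the endothelial selectins, also overlapped and did not pass. Vwf, the von Willebrand factor of Weibel-Palade bodies, stood at 18.3 to 55.2 FPKM (median 40.3) against 134, 109 and 108 FPKM, and saline libraries at 53.4 to 119 FPKM. Procr, the endothelial protein C receptor, was at 3.54 to 11.2 FPKM (median 5.68) against 19.1, 26.4 and 15.1 FPKM. Both groups were apart for Vwf and Procr, whose log2 differences were -1.61 and -1.64, and Vwf was not called without loxP/loxP library 1 (-1.51).

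Prss23, a serine protease, was among the largest falls, at 5.82 to 18.7 FPKM (median 15.2) against 105, 139 and 86.1 FPKM (log2 difference -2.90). The saline libraries had 12.2 to 34.5 FPKM of Prss23 and the iΔEC/iΔEC libraries 164 to 217 FPKM, so that all libraries of the first experiment lay under all of the second. Of 20 junction genes 3 were called lower and 0 higher, where 2.39% of all genes tested were called lower. Cdh13, or T-cadherin, was at 0.610 to 1.53 FPKM (median 0.803) against 6.48, 6.74 and 4.28 FPKM, Jam2 differed by -1.17 and the arterial connexin Gja5 by -1.31. Gja5, Dkk2 and Bmx were called among 7 arterial markers, and Mmrn1 and Ccl21a among 3 lymphatic markers tested. Without loxP/loxP library 1 Gja5 (-1.23), Dkk2 (-1.11), Jam2 (-1.07) and Ccl21a (-2.79) were not called, and without library 2 Gja5 (-1.14), Dkk2 (-0.87) and Bmx (-0.93) were not. Lyve1, the most abundant of the lymphatic list, differed by -0.23. Of the 6 general capillary and 6 aerocyte markers 0 were called, with medians of 0.18 and -0.12. The aerocyte marker Fibin differed by 1.09 without passing (limma adjusted p = 0.098). Nrp2 was called lower (-1.04) of 19 genes of VEGF and angiopoietin signaling, and Kdr, the main VEGF receptor, differed by -0.19.

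Of 17 genes of the circadian clock tested, 6 were called lower in the 10 mg/kg group and 1 higher, against 2.39% and 2.16% of all genes tested. In the clock, CLOCK and ARNTL drive the PER and CRY genes that repress them, the REV-ERB proteins encoded by Nr1d1 and Nr1d2 repress Arntl, and Dbp and Tef are PAR bZIP output factors. Nr1d1 was at 0.517 to 3.70 FPKM (median 1.81) in the 10 mg/kg group and at 20.7, 16.7 and 20.1 FPKM in the 2 mg/kg group, with a log2 difference of -2.98 ± 0.31 (limma adjusted p = 0.000821). The saline libraries lay at 31.4 to 65.5 FPKM, above both. Dbp was at 0.667 to 1.18 FPKM (median 1.06) against 7.78, 6.74 and 11.9 FPKM. Saline library 1 had 1.95 FPKM of Dbp, and the other saline libraries had 19.4 to 25.5 FPKM. Nr1d2 (-1.56), Tef (-1.39), Per3 (-1.01) and Per2 (-1.01) were also called lower. For Per2 the saline libraries lay at 2.02 to 5.31 FPKM, so that all libraries of the first experiment were under all of the second. Arntl, which the REV-ERB proteins repress, was the only clock gene called higher, at 2.56 to 3.78 FPKM (median 2.89) against 1.18, 1.39 and 0.522 FPKM. The list median was -0.60, 3 of the 17 had a positive difference, and Cry1 (-0.05) and Per1 (-0.07) did not pass. Nr1d1 overlaps Thra and Dbp overlaps Sphk2, each on the opposite strand, and these neighbours differed by -0.53 and 0.37 without passing. The hour at which the cells of each experiment were taken is not given in the sources used here, and its part in these differences was not tested.

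Motifs of the clock were searched in the same promoter windows and are shown for the genes called lower that hold one upstream of the start. The E-box CACGTG was in 5 of 16 windows of clock genes (31.2%) against 8.1% of all windows and 11.6% of those of genes tested, and the D-box TTATGTAA in 1 of 16 (6.2%) against 1.1% and 0.7%. Capitals mark the motif, at chr15:81802536-81802561 and chr15:81811266-81811291 before the 2 starts of Tef, and at chr4:151044853-151044880 and chr4:151044806-151044833 before Per3, each written along the strand of its gene.
Tef, E-box of the first start: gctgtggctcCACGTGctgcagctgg
Tef, E-box of the second start: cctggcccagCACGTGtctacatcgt
Per3, D-box: gacccgcgcgTTATGTAAggtactcggg
Per3, D-box nearer the start: ccgcccgcggTTATGTAAcccccgccgt
Tef was at 5.23 to 8.96 FPKM (median 7.21) in the 10 mg/kg group and at 20.8, 17.4 and 21.8 FPKM in the 2 mg/kg group. Per3 was at 0.319 to 1.05 FPKM (median 0.666) against 2.24, 1.82 and 3.05 FPKM, and neither gene overlapped between the groups.

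**Figure D5:**
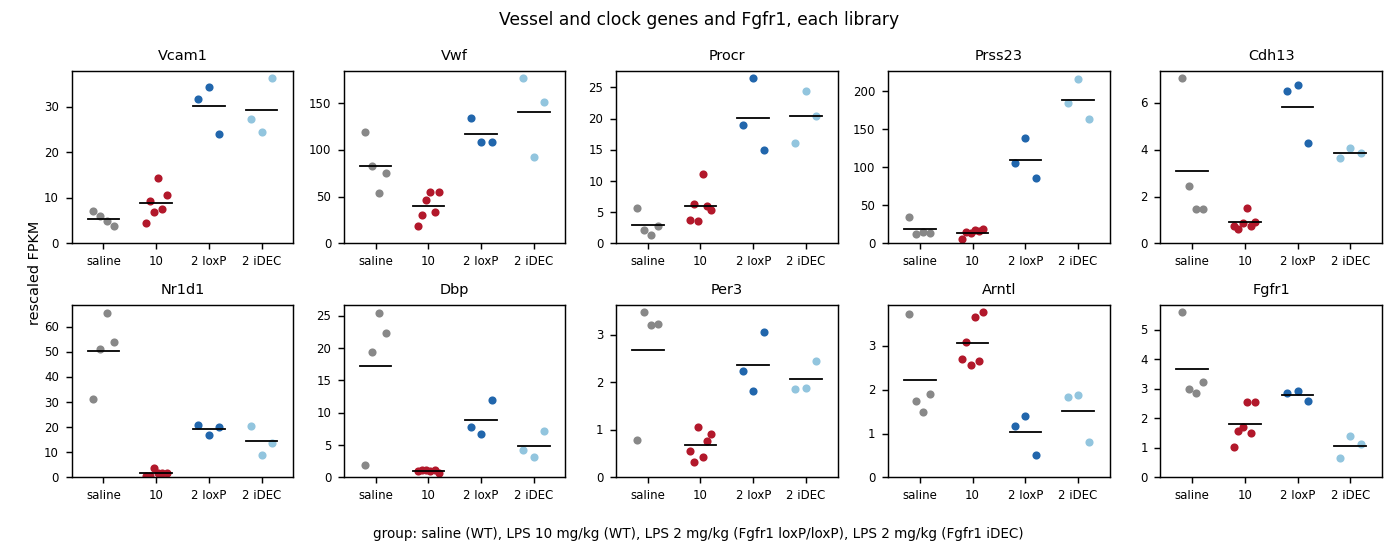
Rescaled FPKM of vessel genes, clock genes and Fgfr1 in each library, in the order saline, 10 mg/kg LPS, 2 mg/kg LPS in loxP/loxP and 2 mg/kg LPS in iΔEC/iΔEC mice, with a black line at the group mean. Vcam1 and Prss23 are higher in both groups of the second experiment, and Nr1d1 is highest in saline (31.4 to 65.5 FPKM) and lowest after 10 mg/kg (0.517 to 3.70 FPKM).

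Transcripts encoded in the mitochondrial genome were lower in the 10 mg/kg group, and nuclear genes of the same complexes were not. The 13 mitochondrially encoded proteins summed to 7453 to 13110 FPKM (median 9177) against 21160, 37200 and 14340 FPKM. Of the 13 genes 8 were called lower, with a median of -1.25. mt-Cytb, the cytochrome b of complex III, was at 1324 to 2276 FPKM (median 1618) against 3796, 6583 and 2791 FPKM, a log2 difference of -1.28 ± 0.34 (limma adjusted p = 0.0429). The groups were apart, but the 2 mg/kg libraries differed by more than the difference from the nearest WT library. Of 90 nuclear genes of oxidative phosphorylation 0 were called, and their median was 0.21. The call of mt-Cytb was lost without any 1 WT library and without loxP/loxP library 1 (-1.34) or 2 (-0.94), so that it stands at the edge of the threshold. In iΔEC/iΔEC libraries the mitochondrial sum was 10270 to 15700 FPKM, and in saline libraries it was 7960 to 19410 FPKM, a range that reaches into both LPS groups.

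Immunoglobulin and plasma cell transcripts led the genes that were lower in the 10 mg/kg group. The 268 immunoglobulin segments summed to 140 to 542 FPKM in the 10 mg/kg group. In the 2 mg/kg group they summed to 3414, 1863 and 1525 FPKM. Of 149 segments with a mean of at least 0.5 FPKM 80 were called lower and 0 higher. Some, such as Ighg1 with at most 0.0636 FPKM in the 10 mg/kg group, passed this filter only through the 2 mg/kg libraries. For these the filter favoured a lower call, and the count describes levels only. Jchain, which joins IgA and IgM, was at 0 to 1.48 FPKM (median 0.255) against 52.8, 34.1 and 16.7 FPKM, a log2 difference of -4.55 ± 0.35 (limma adjusted p = 0.000245). Igha, the constant region of IgA, was at 0.245 to 6.00 FPKM (median 1.56) against 208, 152 and 77.7 FPKM, and its log2 difference of -5.74 was the largest of all genes called lower. Mzb1, a chaperone of plasma and marginal zone B cells, differed by -2.51. The saline libraries had at most 1.55 FPKM of Jchain but up to 1828 FPKM over all segments, and segments of one family share near-identical sequence. Prdm1, a regulator of plasma cells that other cells also express, did not pass (-0.40). Of 13 tested genes typical of plasma cells, put together after the values had been seen, 9 were called lower. Among these 9, Jchain, Ighg1, Ighg2b, Ighg2c and Ighg3 averaged under 0.5 FPKM in the 10 mg/kg group. They passed the filter only through the 2 mg/kg libraries, which favoured a lower call. The genes of the list not called, besides Prdm1, were Ighm (-1.17), Iglc1 (-0.81) and Sdc1. Sdc1, the surface proteoglycan syndecan 1, had a positive difference (0.58). All 4 genes not called overlapped between the groups.

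Genes of high endothelial venules, the vessels through which lymphocytes enter lymph nodes, were read unevenly. Of 6 genes tested from a list made after the values had been seen, 3 were called lower. The others were Chst4, Enpp2 (-0.61) and Fut7 (-0.22), and Enpp2 and Fut7 overlapped between the groups, at 3.74 to 7.89 FPKM and 1.58 to 2.82 FPKM in the 10 mg/kg group. Madcam1 was too low to be tested, at no more than 0.284 FPKM in any of the 9 libraries. Glycam1, an L-selectin ligand, was at 19.6, 104 and 0.358 FPKM in the 2 mg/kg group and at most 0.052 FPKM in the WT libraries with LPS. Chst4, a sulfotransferase that acts on such ligands, had from 11 to 245 reads in the 2 mg/kg group and 0 reads in all 6 WT libraries with LPS, where a floor of 3 reads a library applies, and it did not pass (limma adjusted p = 0.052). Library 2 carried most of both. Glycam1 and Chst4 passed the filter on mean FPKM only through the 2 mg/kg libraries, which favoured a lower level in the WT libraries. The saline libraries were as uneven, with Glycam1 at 0.022 to 57.7 FPKM. Ubd, a ubiquitin-like protein, was at 0.234 to 1.12 FPKM (median 0.563) against 35.5, 57.8 and 2.40 FPKM, and the chemokine Ccl21a at 0.541 to 2.75 FPKM (median 1.44) against 36.8, 3.51 and 61.2 FPKM. Both were called lower, and in each a single loxP/loxP library came close to the WT range. Ubd was not called without loxP/loxP library 1 (-3.15), Ccl21a without library 1 (-2.79) or 3 (-2.43), and Glycam1 without any 1 WT library or without loxP/loxP library 1 (-3.57) or 2 (-2.39).

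The remaining genes among the largest falls with at least 5 FPKM were Cytl1, a secreted cytokine-like protein (-2.59), Retnla, a resistin-like protein (-2.39), AC154187.2 (-2.4), which lies on the strand of the far more abundant Myl12a so that reads could be shared, Thy1, a surface glycoprotein of T cells and fibroblasts (-2.33), and Sncg, or gamma-synuclein (-2.30). Thy1 was at 0.517 to 1.98 FPKM (median 1.19) against 12.9, 6.96 and 11.6 FPKM, and Cytl1 at 6.08 to 26.7 FPKM (median 15) against 118, 110 and 56.1 FPKM. The groups did not overlap for any of the 5. AC154187.2 averaged 0.286 FPKM in the 10 mg/kg group and passed the filter only through the 2 mg/kg libraries. Cytl1 was at 139 FPKM in saline library 1, above both groups, but at 44.7, 14.6 and 18.9 FPKM in the other saline libraries, under every loxP/loxP library. Thy1 was at most 3.58 FPKM in saline.

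Ddit3 and Rpl35a had the largest differences among genes called higher with at least 5 FPKM, predicted genes left out. Rpl35a separated the 2 experiments, and Ddit3 did not. Ddit3, the stress factor CHOP of chr10:127290774-127296288, was at 12.3 to 30.9 FPKM (median 15.4) in the 10 mg/kg group and at 0.476, 0.286 and 0.351 FPKM in the 2 mg/kg group, from 391 to 866 reads against 8 to 14. Its log2 difference was 3.68 ± 0.25 (limma adjusted p = 0.000154). The saline libraries had 5.71 to 8.77 FPKM and the iΔEC/iΔEC libraries 4.38, 0.104 and 5.85 FPKM, so that the loxP/loxP libraries were under all saline libraries. Ddit3 was the only one called of 22 genes of the unfolded protein response, and Atf4 and Hspa5 differed by 0.38 and 0.19. Ddit3 overlaps Mars on the opposite strand, which differed by -0.34, and Gm4189, with a mean of 0.399 FPKM. A second entry named Ddit3 overlaps it on the same strand, with a mean of 0.0 FPKM, and the division of reads between these entries is uncertain. Without strand in the counting, reads of overlapping genes cannot be told apart, and the strand setting is not given in the sources used here.

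Rpl35a, a ribosomal protein gene, was at 60.7 to 128 FPKM (median 86.0) against 12.2, 9.62 and 8.87 FPKM. Saline libraries had 43.4 to 68.5 FPKM and iΔEC/iΔEC libraries 7.53 to 8.07 FPKM, so that all 10 libraries of the first experiment lay above all 6 of the second. Its processed pseudogene Rpl35a-ps2 had the reverse order, at 3.79 to 8.47 FPKM (median 6.01) against 34.4, 26.0 and 33.5 FPKM, and the division of reads between such near-identical copies is uncertain. Over 81 ribosomal protein genes the median difference was 0.03, and it was negative with reads scaled on their totals. In all, 10 of the genes called higher (3.2%) and 69 of those called lower (19.7%) separated the experiments in this way. Saline and iΔEC/iΔEC libraries were included. Of the 14698 genes tested, 65 were higher in all libraries of the first experiment and 134 lower, together 1.35%. Marveld2, which encodes the junction protein tricellulin, was one of them, at 0.418 to 0.731 FPKM against 5.71, 4.57 and 4.92 FPKM, with 0.842 to 1.36 FPKM in saline. Its limma adjusted p of 5.36e-05 was the smallest of all genes, shared with the predicted gene Gm6505. Igha, Jchain, Prss23, Vcam1, Procr, Cd74 and Retnla were also among those called lower, and Hfe, Cxcl14, Pdgfra and C7 among those called higher.

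Fgfr1 was lower in the 10 mg/kg group but did not pass. It stood at 1.05 to 2.56 FPKM (median 1.64) in WT mice and at 2.87, 2.93 and 2.57 FPKM in loxP/loxP mice, a log2 difference of -0.45 ± 0.18 (limma adjusted p = 0.147). The groups just failed to overlap, and the exact two-sided permutation p was 0.0238, the smallest that 84 splits of 9 libraries allow. The iΔEC/iΔEC libraries had 0.674 to 1.42 FPKM and the saline libraries 2.85 to 5.6 FPKM. Of 23 genes of FGF receptors and ERK feedback 0 were called, and their median of 0.01 was negative with reads scaled on their totals. Rock1 and Rock2, kinases of EC contraction, were at 11.6 to 18.6 FPKM (median 17.0) against 14.6, 12.9 and 17.2 FPKM and at 7.18 to 15.2 FPKM (median 10.3) against 15.4, 13.1 and 13.4 FPKM. Neither passed. Within 20 Mb on either side of Fgfr1, 7 of 169 genes tested (4.14%) were called, 4 higher and 3 lower, against 4.54% of all genes tested.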

How the data were processed

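RNA of 16 pulmonary EC samples had been sequenced, and 2 tables, 1 per experiment, were used. Per the labels and the methods of the study, the authors aligned the reads with HISAT2 (2.0.5) and counted them with featureCounts (1.5.0-p3). The deposited values are FPKM, normalized by the authors within each table. The strand setting is not given in the sources used here. The 54532 genes were joined by identifier, the 9 columns were rescaled by the median of ratios over 16895 genes above 0 in all of them, and log2(FPKM + 1) was tested for genes that averaged 0.5 FPKM or more with limma 3.58.1 in R 4.3.3 (intensity trend, Benjamini-Hochberg adjustment). The log2 scale with a pseudocount of 1 understates differences of low genes. Genes near 0 in 1 group passed the filter through the other group alone, which favours a call in that direction. Saline and Fgfr1 iΔEC/iΔEC columns were put on the same scale and entered no main test.

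FPKM values were whole multiples of 1 read in 100% of cases (tolerance 0.05 reads), which gave the read totals. All library pairs of a group differed by more than sampling noise, and no 2 were 1 library. Whether a library held the cells of 1 mouse or of several is not given in the sources used here, so the p-values measure the spread between these libraries, which may be technical. Named genes were the 15 largest rises and 15 largest falls with at least 5 FPKM in the higher group, no overlap between groups and a direction that held without each library, predicted genes and antibody segments left out, up to 4 genes of each list, 12 genes of the study's question, sex and strain genes, and the 5 most abundant calls. Groups, genes and lists were chosen with earlier results of these data known, so that counts over a list are descriptions. On simulated data 73% of genes changed by 1.5 on the log2 scale and 100% of those changed by 2.5 were called, with 11 false calls. The simulation drew each gene independently, with a single set spread for all genes and no shift shared within a library. Its changed genes had a mean of at least 2 FPKM. These figures are a check of the method and do not give the error rates of the real libraries. A few items are not reported here. Alternatives were other scalings, pseudocount, filter, tools and left-out libraries.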

Additional observations from a re-analysis of the deposited data

Results flagged for a closer look

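Single libraries stood apart from the other 5 of the 10 mg/kg group, by a gap large against the range of the group (Dixon's criterion for 6 samples), in 12 of 153 values checked (7.8%), where chance gives about 1 in 20. WT library 2 was highest for Ddit3 (30.95 FPKM, group median 15.36), for Irf7 (252.6 FPKM, median 135.1) and for the summed level of the type I interferon-stimulated genes (2510, median 1354). WT library 4 was highest for Jchain (1.483 FPKM, median 0.2551), Dkk2 (1.695, median 0.5859), Dcn (1.86, median 1.119), Cdh13 (1.531, median 0.8034) and Procr (11.2, median 5.681). WT library 3 was highest for Ciita (1.994 FPKM, median 0.9276) and Glycam1 (0.05153, median 0). WT library 6 was highest for Mmrn1 (1.232 FPKM, median 0.5032) and for the summed level of the FGF receptor and ERK feedback genes (462.2, median 400.7). For the genes called lower, each of these libraries lay on the side of the 2 mg/kg group. Groups of 3 libraries were not examined in this way.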

How the results depend on the processing

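The numbers of genes called moved by over 1.5 times under several settings. With no limit on the fold, 732 genes were higher and 648 lower. Scaling on the endothelial list gave 110 and 207. A mean of at least 2 FPKM gave 233 lower, limma-voom on read numbers 585 lower, and the Fgfr1 iΔEC/iΔEC libraries as the 2 mg/kg group 209 lower. Leaving out 1 library gave 164 to 410 higher and 236 to 340 lower. With the replicate number as a block 131 and 90 genes were called. Same-numbered libraries share only a number (correlations of their deviations -0.3174, 0.2699 and 0.3178). The other scalings, filters and fits gave counts within 1.5 times of 317 and 351. Of 109 named calls, 59 held with endothelial scaling, 44 with the block and 80 without a filter on low values, and 75 of 108 with the iΔEC/iΔEC libraries. The direction reversed in 1 case, Snord49a, at -0.01 with the iΔEC/iΔEC libraries. The causes were not tested. With 3 libraries at 2 mg/kg, 15969575 to 17002788 reads each, a missed threshold does not show equality.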

Other observations

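Other gene groups were measured in the same 9 libraries. Over all genes tested 4.54% were called in either direction, and counts of 0 or 1 are not read as results about a list. Of 38 cell cycle genes 0 were called, with a list median of 0.19, and of 22 genes of cholesterol synthesis 0 were called. Of 22 hypoxia and glycolysis genes Slc16a3, a lactate transporter, was called higher (1.24). Of 25 immediate early and heat shock genes Fosb (-1.59) and Hspa1b (-1.32) were called lower. Of 12 glucocorticoid-responsive genes Cdkn1a was called higher (1.15). The largest difference of all genes called higher was that of Gm10800, a predicted gene, at 4.82 to 343 FPKM (median 52.2) against 0.529, 0.650 and 0.662 FPKM, and saline libraries spread from 0.279 to 831 FPKM.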
